A study of Mus musculus with 15 samples.

Results

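Probe sets for 33 mouse genes of glucose uptake, glycolysis, pyruvate use and the pentose phosphate pathway, with the hypoxia factor gene Hif1a, were followed in Ba/F3-beta cells with and without IL-3. The genes were listed by their place in these pathways, and all non-control probe sets annotated to one of them alone were taken. Of the 33 listed genes, 29 had at least 1 such probe set, and together they held 49 of the 36701 non-control probe sets. The study asked which genes depend on Stat5a and Stat5b, closely related transcription factors activated downstream of the IL-3 receptor. Ba/F3-beta cells are a mouse pro-B cell line that needs IL-3 to grow, here represented by a single line. The groups were cells given siRNAs against Stat5A and Stat5B together and stimulated with IL-3 for 30 min or 2 h, cells given the scramble I control siRNA and stimulated for 30 min or 2 h, and unstimulated cells given the control siRNA. Every cell had thus been transfected with an siRNA, and Stat5 siRNA cells without IL-3 were not analysed here. Each of the 5 conditions was measured on 1 array of each of 3 Affymetrix designs, U74A, U74B and U74C, so no difference has a replicate check and no p-value is given.

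Glycolysis turns glucose into pyruvate. Glucose enters through facilitative transporters, is trapped by hexokinase, is committed by phosphofructokinase, and is then cleaved into triose phosphates that yield ATP and pyruvate in the lower steps. Pyruvate is reduced to lactate by lactate dehydrogenase or oxidised by the pyruvate dehydrogenase complex, which pyruvate dehydrogenase kinases inhibit. The pentose phosphate pathway branches from glucose 6-phosphate and supplies NADPH and ribose for nucleotides, and growth factors such as IL-3 are known to support glucose uptake in dependent blood cells.

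The deposited signals are linear intensities, 1 value per probe set and array. A floor of 119.8 was set, and a pair of signals was used where either one reached it. Where the other was lower it was raised to the floor, which makes the ratio a lower bound in size. Each gene was given the median log2 ratio of its usable probe sets, without the kinds that can cross-hybridise where others existed. Signals are compared only between arrays of the same probe set. Probe sets of 1 gene gave a log2 ratio with an SD of 0.20 to 0.24 on U74A and of 0.23 to 0.32 over all designs. This spread between probe sets was the only kind of technical error that could be read. It holds no variation between cultures, transfections or hybridisations. Arrays of the same design correlated at 0.902 to 0.964. The siRNA targets had lower signals in Stat5 siRNA cells. A Stat5a probe set read 277 in Stat5 siRNA cells and 548 in control siRNA cells at 30 min, and 254 in Stat5 siRNA cells and 475 in control siRNA cells at 2 h. Stat5b read 166 in Stat5 siRNA cells and 499 in control siRNA cells at 30 min, against 126 in Stat5 siRNA cells and 177 in control siRNA cells at 2 h. Of the 18 pro-B and B lineage markers with a probe set, 5 reached the floor (Csf2rb, Csf2rb2, Il3ra, Ptprc and Cd79b), while Cd79a, Vpreb1, Pax5, Ebf1 and Rag1, early B lineage genes, did not. Of the markers of T and NK cells 0 of 7 reached it, and of those of myeloid and mast cells 0 of 10. Other lineage lists did have members at the floor. They were 4 of 6 for erythroid and megakaryocyte markers and 3 of 8 for fibroblast and epithelial markers (Cdh1, Col1a2 and Epcam).

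Of the 49 member probe sets, 34 reached the floor on at least 1 array, 29 of them on U74A, and 25 genes could be measured. The remaining 8 listed genes have no value. For Pfkfb3, Aldoc, Eno2 and Ldhb no probe set reached the floor on any array. Gpi1, Eno1, G6pdx and Gapdh had no probe set annotated to them alone, so the entry enzyme of the oxidative pentose phosphate pathway and a main enolase gene were not read. Aldoa and Hif1a were read only from probe sets of kinds that can cross-hybridise, and 21 of the 25 measured genes were read on U74A alone. The range over the 5 conditions was read from probe sets at or above the floor on every array, without cross-hybridising kinds. For 21 genes the highest signal was at the median 1.35 times the lowest, against 1.40 times over 6038 genes of the whole set. Slc2a3 had the widest range at 3.05 times, followed by Pfkl at 2.51 times, and Taldo1 the narrowest at 1.06 times.

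**Figure D1:**
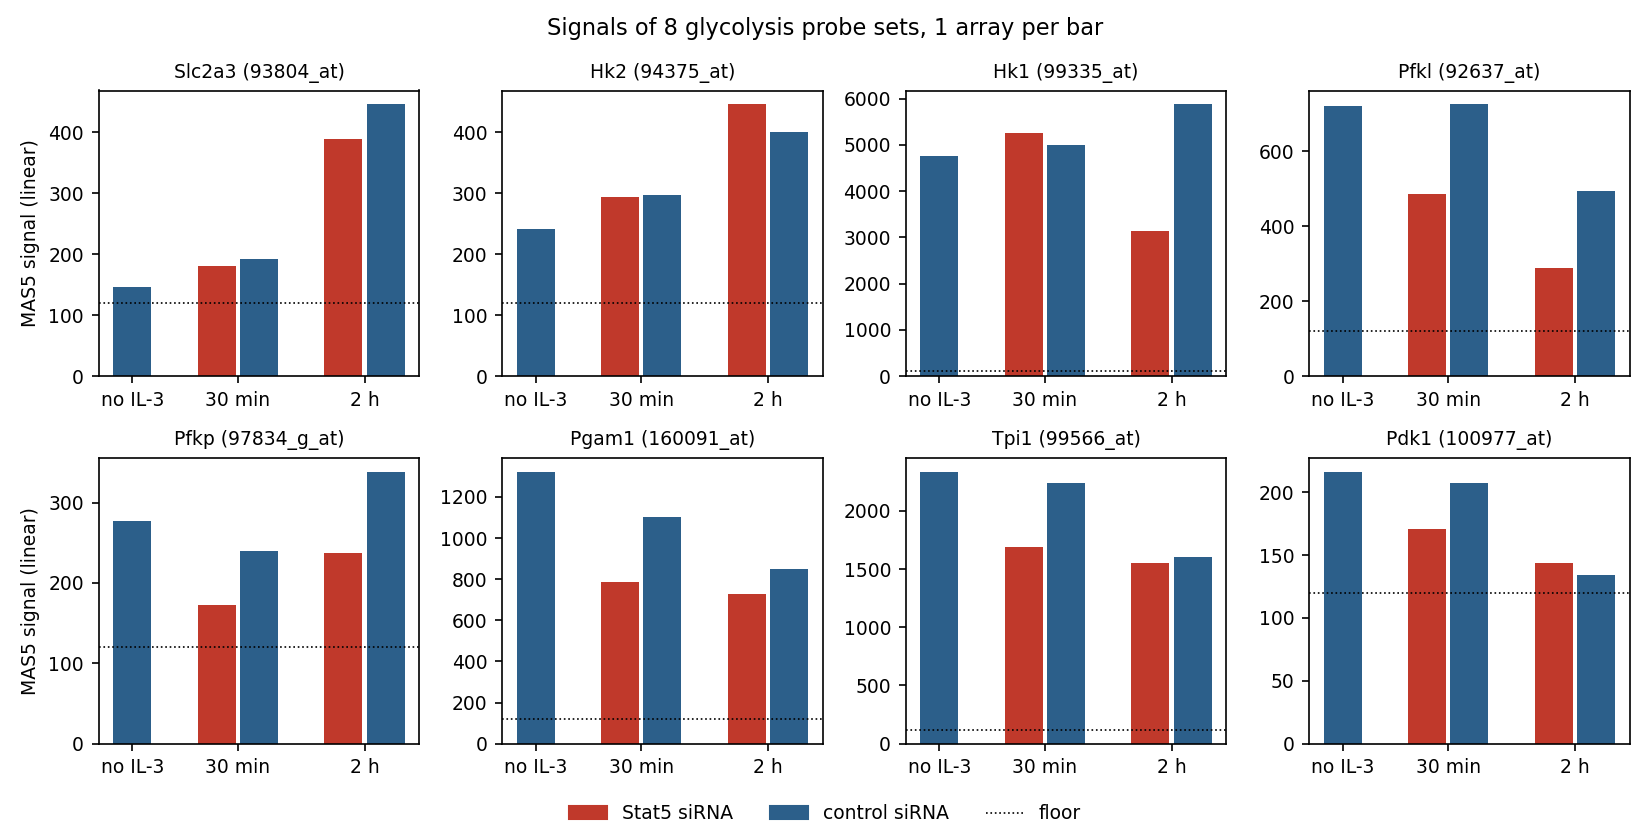
MAS5 signals of 8 probe sets, on the vertical axis of each panel, in the 5 conditions along the horizontal axis; each bar is 1 array and the dotted line is the floor. The Slc2a3 signal at 2 h of IL-3 was 388 in Stat5 siRNA cells and 446 in control siRNA cells, and the Hk1 signal stands at 3139 in Stat5 siRNA cells against 5882 in control siRNA cells at 2 h.

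After 30 min of IL-3 in control siRNA cells, these genes had values close to those of unstimulated cells. Of 25 measured genes, 0 passed 2-fold in either direction, where 0.711% of all 8155 measured genes were higher and 0.343% lower by that rule, and 0 passed 1.5-fold, where 2.97% of all genes were higher and 2.37% lower. Their median log2 ratio was 0.01 and 12 of 25 lay below 0, beside a median of -0.01 and 51.0% below 0 over all genes. The values farthest from 0 were those of Slc2a3 at 0.39, of Hk2 and Pdha1 at 0.30 and of Pgam1 at -0.27, which compares with a probe set SD of 0.23 on U74A.

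By 2 h of IL-3 in control siRNA cells, the glucose transporter Slc2a3 was the 1 gene of 25 past 2-fold, where 2.45% of all 8294 genes were higher and 1.63% lower by that rule. At 1.5-fold, Slc2a3 and the hexokinase gene Hk2 were higher and the phosphoglycerate mutase gene Pgam1 and the kinase gene Pdk1 lower, while 7.92% of all genes were higher and 8.28% lower. The member median was -0.03 with 14 of 25 below 0, beside -0.03 and 53.8% over all genes.

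Slc2a3 encodes the high-affinity glucose transporter of neurons and several blood cell types. Its brighter U74A probe set read 146 without IL-3, 192 at 30 min and 446 at 2 h in control siRNA cells, so that the signal at 2 h was 3.05-fold that of unstimulated cells. A second U74A probe set read 91.6 without IL-3, 102 at 30 min and 205 at 2 h, with both early values under the floor, and gave at least 1.71-fold. A probe set of the cross-hybridising kind on U74C, which did not enter the gene value, read 321, 398.5 and 795 at the same times. On each of these the signal was highest at 2 h, and the gene value at 2 h was a log2 ratio of at least 1.19. A further probe set, on U74C, stayed under the floor in all 3 control siRNA conditions. Slc2a1, the widely expressed basal glucose transporter, lay near the floor with 127 without IL-3, 137 at 30 min and 93.9 at 2 h, and with a signal under the floor at 2 h its ratio is only a bound.

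Among the enzymes of the upper steps, the hexokinases had positive log2 ratios at 2 h of IL-3 and the phosphofructokinase subunits differed in sign. Hk2, the inducible hexokinase, read 242 without IL-3, 297.5 at 30 min and 400.0 at 2 h, a log2 ratio of 0.73 at 2 h. Hk1, the widely expressed hexokinase, read 4755, 4998 and 5882 at the same times, with a log2 ratio of 0.31. Pfkl, the liver-type subunit of phosphofructokinase, read 721 without IL-3, 725 at 30 min and 493 at 2 h, a log2 ratio of -0.55 at 2 h, whereas Pfkp, the platelet-type subunit, had a log2 ratio of 0.36 over its pair of probe sets. Pfkm, the muscle-type subunit, lay near the floor on every array, and Aldoa, the main aldolase gene, had a log2 ratio of -0.27. The subunits of 1 enzyme thus stood on both sides of 0 at 2 h, with Pfkl and Pfkp each more than 1 SD of a U74A ratio (0.20) away from it. Because Hk2 and Pfkl differed in direction at 2 h, the promoters of both genes are shown, from 250 bases before to 50 bases after the gene start in RefSeq on GRCm38.p6. Hk2 (chr6:82774405-82774704, minus strand) and Pfkl (chr10:78009758-78010057, minus strand) are written from 5′ to 3′, with matches to ACGTG, the core of the hypoxia response element, in capitals on either strand.
Hk2: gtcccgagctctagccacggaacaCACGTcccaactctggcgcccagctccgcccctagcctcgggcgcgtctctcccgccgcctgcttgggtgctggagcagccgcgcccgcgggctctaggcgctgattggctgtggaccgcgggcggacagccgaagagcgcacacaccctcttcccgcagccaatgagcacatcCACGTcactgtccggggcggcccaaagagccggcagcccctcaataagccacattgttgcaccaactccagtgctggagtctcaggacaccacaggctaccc
Pfkl: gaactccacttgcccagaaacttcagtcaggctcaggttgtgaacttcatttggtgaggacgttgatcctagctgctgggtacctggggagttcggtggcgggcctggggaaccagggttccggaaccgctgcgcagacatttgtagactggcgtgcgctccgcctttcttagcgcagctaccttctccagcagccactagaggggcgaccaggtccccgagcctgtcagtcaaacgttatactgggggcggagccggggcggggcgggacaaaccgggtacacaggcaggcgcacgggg
The Hk2 promoter held 2 matches to ACGTG and the Pfkl promoter held 0. Other forms of the core were not searched, and a part of these letters in the difference was not tested.

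In the lower steps of glycolysis, 5 of 5 measured genes lay below 0 at 2 h of IL-3, with a median log2 ratio of -0.21 and a range of -0.64 to -0.02, and 5 of 5 also did so with median and quantile scaling. Pgam1, the phosphoglycerate mutase gene, read 1323 without IL-3, 1101 at 30 min and 848 at 2 h, a log2 ratio of -0.64 at 2 h. Tpi1, which encodes triosephosphate isomerase, read 2338, 2240 and 1603 at the same times, with a log2 ratio of -0.54. Of the 3 control siRNA conditions, Pgam1 and Tpi1 were each lowest at 2 h. They differed there from the unstimulated cells by over 2 SD between probe sets on U74A, but by under 2 SD over all designs (0.32). Pgk1, which encodes phosphoglycerate kinase, had a log2 ratio of -0.21, Pkm, the muscle-type pyruvate kinase gene, -0.12, and the enolase gene Eno3 -0.02, which are near or under 1 SD. The promoters of Tpi1 (chr6:124814109-124814408, minus strand), Pgk1 (chrX:106186850-106187149, plus strand) and Pgam1 (chr19:41911621-41911920, plus strand) are shown as those of neighbouring steps with values below 0 here, from the same table and build and with ACGTG matches in capitals.
Tpi1: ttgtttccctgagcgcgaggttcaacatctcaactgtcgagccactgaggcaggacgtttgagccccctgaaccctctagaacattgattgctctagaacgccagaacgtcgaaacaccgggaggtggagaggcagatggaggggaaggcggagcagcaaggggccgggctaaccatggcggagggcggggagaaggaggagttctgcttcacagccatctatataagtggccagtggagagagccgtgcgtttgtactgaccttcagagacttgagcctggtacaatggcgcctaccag
Pgk1: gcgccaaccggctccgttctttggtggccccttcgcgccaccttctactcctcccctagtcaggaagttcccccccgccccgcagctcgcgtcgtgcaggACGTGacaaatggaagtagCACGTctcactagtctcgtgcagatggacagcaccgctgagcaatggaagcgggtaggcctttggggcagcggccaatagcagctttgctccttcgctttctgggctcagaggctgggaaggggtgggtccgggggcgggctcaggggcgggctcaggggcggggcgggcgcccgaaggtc
Pgam1: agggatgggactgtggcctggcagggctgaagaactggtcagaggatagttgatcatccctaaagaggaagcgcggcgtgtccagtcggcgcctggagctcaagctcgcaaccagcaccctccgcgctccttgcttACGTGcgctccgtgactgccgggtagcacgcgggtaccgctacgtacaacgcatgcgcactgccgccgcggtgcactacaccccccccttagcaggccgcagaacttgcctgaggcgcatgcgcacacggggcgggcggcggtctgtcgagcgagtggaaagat
The Pgk1 promoter held 2 matches, the Pgam1 promoter 1 and the Tpi1 promoter 0. A part of these letters in the values at 2 h was not tested.

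Genes for the use of pyruvate were spread around 0 after IL-3, with 1 exception. Pdk1, a kinase that inhibits pyruvate dehydrogenase, read 216 without IL-3, 207 at 30 min and 134 at 2 h in control siRNA cells, a log2 ratio of -0.69 at 2 h and the lowest of the 25 genes. Pdk3, a kinase of the same family, had a log2 ratio of 0.09, and Ldha, which encodes the lactate dehydrogenase subunit that favours lactate, 0.03, with signals of 4066 without IL-3, 3978 at 30 min and 4143 at 2 h. The pyruvate dehydrogenase subunit genes Pdha1 and Pdhb had log2 ratios of 0.01 and 0.33 at 2 h. The 6 measured genes of the pentose phosphate pathway ranged from -0.28 for Pgd, the decarboxylating dehydrogenase of the oxidative branch, to 0.25 for Rpia, the ribose 5-phosphate isomerase gene. Between them lay Pgls (-0.03), the lactonase gene, Rpe (-0.21), the epimerase gene, and Tkt (-0.11) and Taldo1 (0.06), whose products exchange carbon units between sugar phosphates. None of these differed from unstimulated cells by 1.5-fold. Hif1a, the oxygen-regulated subunit of a factor that activates many glycolysis genes, had a log2 ratio of 0.04.

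**Figure D2:**
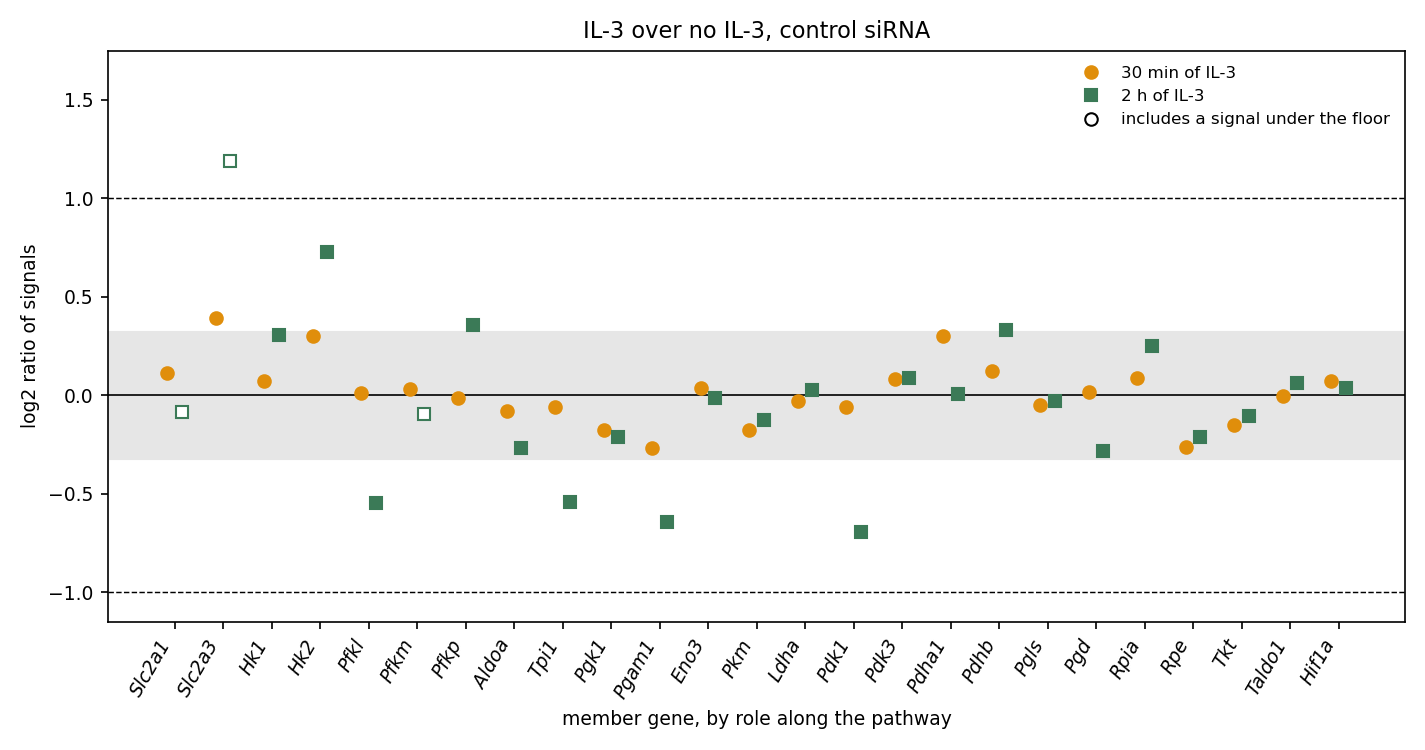
Log2 ratio of signals, IL-3 over no IL-3 in control siRNA cells (vertical axis), for the 25 measured genes in pathway order (horizontal axis), after 30 min (circles) and 2 h (squares). Open symbols include a signal under the floor, the grey band is 1 SD between probe sets of 1 gene, 0.32 at 2 h, and the dashed lines mark 2-fold; Slc2a3 at 1.19 is the 1 gene beyond them.

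Stat5 siRNA cells and control siRNA cells were then compared at the same time of IL-3, which asks which of these genes differ when Stat5a and Stat5b signals are low. The control siRNA arrays with IL-3 also enter the IL-3 ratios above, so each comparison is given by its own values and the ratios are not set against each other. In the same cells the interferon response list was higher with Stat5 siRNA in 18 of 18 measured genes at 30 min, 8 of them past 2-fold, and in 19 of 19 at 2 h, 9 of them past 2-fold. Over all genes 0.308% were 2-fold higher at 30 min and 0.504% at 2 h, and 49.9% and 49.5% lay below 0. The summed signal of the interferon list was 24703 in Stat5 siRNA cells and 8313 in control siRNA cells at 30 min, and 22953 in Stat5 siRNA cells against 8119 in control siRNA cells at 2 h. The erythroid marker Hba-a1 was also higher with Stat5 siRNA, with log2 ratios of 1.23 at 30 min and 1.39 at 2 h. In its marker list 4 of 6 genes reached the floor. The summed signal of the list was 6050 in Stat5 siRNA cells and 4148 in control siRNA cells at 30 min, and 5729 in Stat5 siRNA cells and 3646 in control siRNA cells at 2 h. Such a sum can be carried by 1 gene, so it gives no direction for Epor, Itga2b and Klf1, the other genes at the floor. In the pro-B and B lineage list, the 5 measured genes (Csf2rb, Csf2rb2, Il3ra, Ptprc and Cd79b) were all lower with Stat5 siRNA at 30 min. Their median log2 ratio was -0.32, led by the IL-3 receptor subunit genes Csf2rb2 at -0.65 and Csf2rb at -0.53. At 2 h 3 of 4 measured genes lay below 0 with a median of -0.19. The summed signal of all probe sets of this list was 9472 in Stat5 siRNA cells and 13852 in control siRNA cells at 30 min. At 2 h it was 12627 in Stat5 siRNA cells and 14019 in control siRNA cells. Early B lineage genes such as Pax5 and Ebf1 did not reach the floor, so these values give no direction for the lineage. In bulk RNA, fewer cells of a type and less RNA per cell cannot be told apart. The part of these differences in the values below was not tested.

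At 30 min of IL-3, glycolysis genes were mostly lower in Stat5 siRNA cells, by small amounts. Of 25 measured genes, 20 lay below 0 (80%) with a median log2 ratio of -0.14, beside 49.9% and a median of 0.00 over all 8124 genes. None passed 2-fold, where 0.308% of all genes were higher and 0.382% lower, and none passed 1.5-fold, where 2.07% were higher and 2.33% lower. Among the genes read on U74A alone, 18 of 21 members lay below 0, against 50.3% of 2581 genes. Scaling the U74A arrays to a common median shifts this ratio by -0.10 for every probe set, and the share of members below 0 was then 96%. Pfkl and Pgam1 also passed 1.5-fold lower under that scaling, where 3.28% of all genes did. Over all processing alternatives the member median ran from -0.21 to -0.11 and the share below 0 from 76% to 96%. A single U74A ratio has an SD of 0.22 between probe sets of 1 gene.

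The lower steps carried the lowest group of values at 30 min, with 5 of 5 genes below 0, a median of -0.29 and a range of -0.48 to -0.11. Pgam1 read 788 in Stat5 siRNA cells and 1101 in control siRNA cells, a log2 ratio of -0.48. Tpi1 read 1692 in Stat5 siRNA cells and 2240 in control siRNA cells, or -0.40, and Pgk1 1982 in Stat5 siRNA cells and 2424 in control siRNA cells, or -0.29. In the upper steps, 5 of 6 genes lay below 0. Pfkl was the lowest of all members, with 484 in Stat5 siRNA cells and 725 in control siRNA cells and a log2 ratio of -0.58, just inside 1.5-fold, and Pfkp followed with -0.39. Hk1 had a log2 ratio of 0.07 and Hk2 of -0.02, so the hexokinases stood at the value of control siRNA cells. Pdk1 at -0.28 and Pdha1 at -0.24 were the lowest of the pyruvate genes, with Ldha at -0.15. A cross-hybridising Pdhb probe set on U74C, left out of the gene value of 0.04, read 1523 in Stat5 siRNA cells and 1028 in control siRNA cells, and one of Pkm, left out of -0.11, read 864 in Stat5 siRNA cells and 1370 in control siRNA cells. The pentose phosphate genes were divided, with 3 of 6 below 0 and a median of 0.04, although with median scaling 5 of 6 lay below 0 with a median of -0.06. Pgd was the lowest of them at -0.33, with 299 in Stat5 siRNA cells and 377 in control siRNA cells, while Rpe, read on U74B, was highest at 0.19. Hif1a had a log2 ratio of -0.04.

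At 2 h of IL-3 the members as a whole stood at 0, and 2 enzyme genes of the upper steps were the ones that differed most. Of 23 measured genes, 12 lay below 0 with a median of -0.05, beside a median of 0.00 over all 8132 genes, and with median scaling, which shifts U74A by 0.10 here, the member median was 0.06. None passed 2-fold, where 0.504% of all genes were higher and 0.43% lower. At 1.5-fold, Hk1 and Pfkl were lower and 0 members higher, where 3.37% of all genes were higher and 3.15% lower. Hk1 read 3139 in Stat5 siRNA cells and 5882 in control siRNA cells, a log2 ratio of -0.91 and a signal 1.87-fold lower. Pfkl read 289 in Stat5 siRNA cells and 493 in control siRNA cells, a log2 ratio of -0.77. Pfkl was thus lower in Stat5 siRNA cells on both pairs of arrays, whereas Hk1 was lower at 2 h alone. Each gene was read by 1 U74A probe set.

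The other values at 2 h followed no single direction. Slc2a3 read 388 in Stat5 siRNA cells and 446 in control siRNA cells on its brighter U74A probe set, while the dimmer one read 257 in Stat5 siRNA cells and 205 in control siRNA cells, and the gene value was 0.18. The cross-hybridising kind on U74C, not in the gene value, read 673 in Stat5 siRNA cells and 795 in control siRNA cells, a log2 ratio of -0.24 beside -0.20 for the brighter U74A probe set. Its further probe set, on U74C, read 136 in Stat5 siRNA cells and 38.8 in control siRNA cells, so a pair of the Slc2a3 probe sets was lower and a pair higher, and no direction is given for the gene. Hk2 read 446 in Stat5 siRNA cells and 400.0 in control siRNA cells. In the lower steps 5 of 5 genes lay below 0, with a median of -0.22 and a range of -0.48 for Pkm to -0.05 for Tpi1, but 4 of 5 did so with median scaling, where the highest was 0.06. The Pkm value rests on 1 probe set, and the pair of cross-hybridising ones left out of it gave -0.23 and -0.21. Ldha read 3289 in Stat5 siRNA cells and 4143 in control siRNA cells, a log2 ratio of -0.33. In the pentose phosphate pathway 1 of 6 genes, Pgls at -0.18, lay below 0, and the median was 0.07.

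The bright U74A probe sets were low as a class at 2 h. Of all 199 measured U74A probe sets with a mean signal of at least 2000, 79.4% lay below 0 in Stat5 siRNA cells over control siRNA cells, with a median of -0.13, and all 5 member probe sets of that brightness did so with a median of -0.33. At 30 min the same class had 42.2% below 0 and a median of 0.02, with 4 of 5 member probe sets below 0 and a median of -0.15. The control probe sets of Gapdh, which are not members, gave log2 ratios of -0.28 to -0.21 on U74A at 2 h, and of -0.15 to 0.01 on U74B and -0.12 to -0.01 on U74C. At 30 min they gave -0.03 to 0.06 on U74A. Hk1, Pkm, Pgk1, Aldoa and Ldha hold the bright member probe sets, and the part of this class in their values at 2 h was not tested.

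The 30 min and 2 h siRNA ratios share no array. Of 23 genes measured in both, 13 had the same sign (56.5%), beside 55.9% of 7699 genes, and 10 lay below 0 at both times (43.5%), beside 27.5% of all genes. Lowest conditions were read for the 21 members with a probe set at or above the floor on every array, cross-hybridising kinds left out. The lowest of the 5 was Stat5 siRNA at 2 h for 8, Stat5 siRNA at 30 min for 5 and unstimulated control siRNA for 5. It was control siRNA at 30 min for 2 and control siRNA at 2 h for 1. In that order, 22.7%, 15.9%, 18.4%, 16.4% and 26.5% of 6038 genes had their lowest value in those conditions. The Stat5 siRNA cells at 30 min held the highest signal of 0 members, against 17.6% of all genes.

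**Figure D3:**
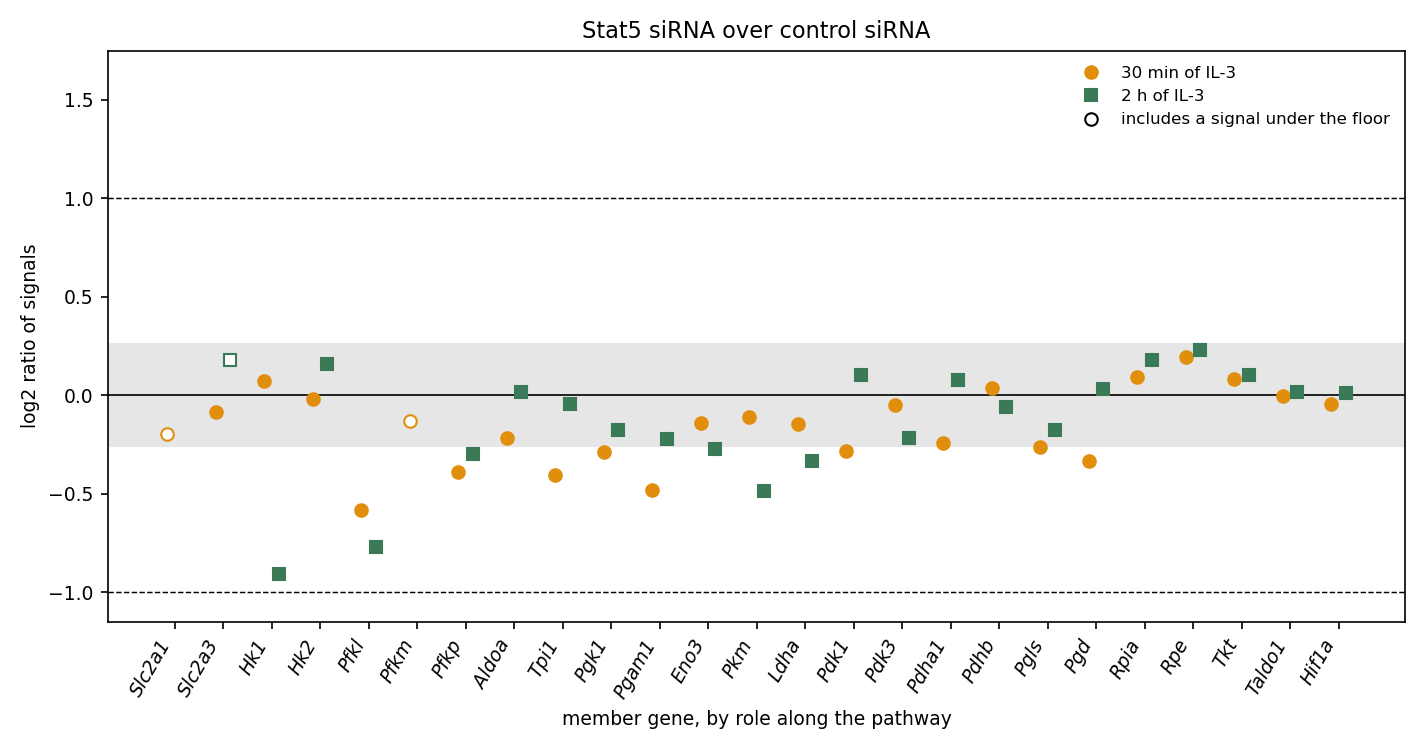
Log2 ratio of signals, Stat5 siRNA over control siRNA (vertical axis), for the measured genes in pathway order (horizontal axis), at 30 min (circles) and 2 h of IL-3 (squares). The grey band is 1 SD between probe sets of 1 gene, 0.26 at 2 h, open symbols include a signal under the floor, and the dashed lines mark 2-fold; no gene passes them, and Hk1 at -0.91 and Pfkl at -0.77, both at 2 h, come nearest.

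**Figure D4:**
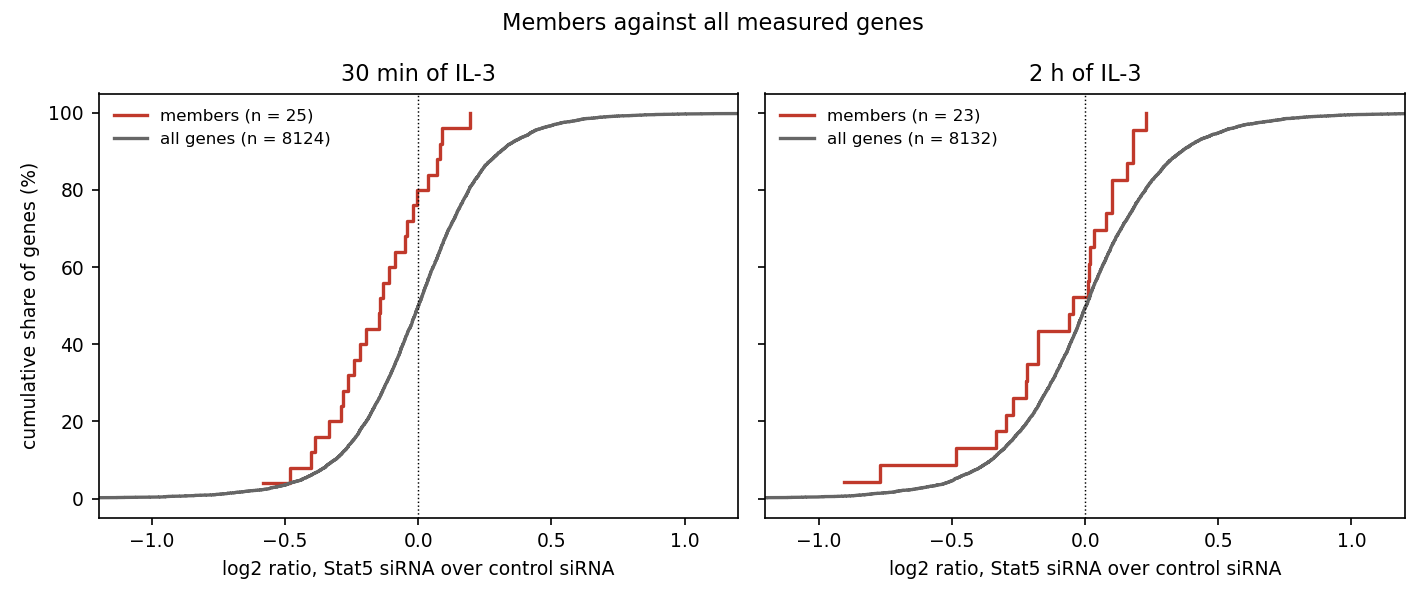
Cumulative share of genes in percent (vertical axis) against the log2 ratio of Stat5 siRNA over control siRNA (horizontal axis), for the members (red) and all measured genes (grey), at 30 min and 2 h of IL-3. At 30 min 80% of the 25 members lie left of 0 against 49.9% of all genes, and at 2 h the curves cross 0 at 52.2% and 49.5%.

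Set against 30 min within each siRNA, 2 h of IL-3 gave a comparison of Stat5 siRNA cells and of control siRNA cells that share no array. In Stat5 siRNA cells 1 of 23 genes, Slc2a3, was higher by 2-fold and 0 lower, where 1.64% of all genes were higher and 1.19% lower. In control siRNA cells 0 of 25 passed 2-fold, where 1.89% of all genes were higher and 1.65% lower, and Slc2a3 stood just under the threshold at a log2 ratio of 0.995. Its log2 ratio in Stat5 siRNA cells was at least 1.10, so this transporter was higher at 2 h than at 30 min with either siRNA. At 1.5-fold, Slc2a3 and Hk2 were higher and Hk1 and Pfkl lower in Stat5 siRNA cells, where 6.32% of all genes were higher and 6.32% lower, and Slc2a3 was higher and Pdk1 lower in control siRNA cells, where 6.74% were higher and 7.94% lower. Signs matched in 14 of 23 genes (60.9%), beside 67.9% of 7924 genes. Median scaling shifts the U74A ratio by 0.19 in Stat5 siRNA cells, and 0 members were then 1.5-fold lower there, where 5.94% of all genes were. Hk1 differed most, at -0.74 in Stat5 siRNA cells and 0.23 in control siRNA cells. Pdk1 at -0.25 in Stat5 siRNA cells and -0.63 in control siRNA cells, and Tpi1 at -0.13 in Stat5 siRNA cells and -0.48 in control siRNA cells, differed by 0.38 and 0.36, slightly over 1 SD of such a difference on U74A (0.33). Pkm and Pgd, with Stat5 siRNA minus control siRNA differences of -0.37 and 0.37, also passed that SD. Apart from Hk1, none reached 1 SD of a difference over all designs (0.41).

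Further genes of the pathway and its regulators were read from lists. Of 46 other genes of glycolysis, glucose uptake, lactate and pyruvate, 18 reached the floor. In the comparisons of IL-3 over no IL-3 and of Stat5 siRNA over control siRNA, 0 passed 2-fold in either direction. Tigar, whose product lowers fructose 2,6-bisphosphate, had the farthest value at 2 h of IL-3, 0.87, followed by Pfkfb4 at 0.68. From 30 min to 2 h Tigar had 0.49 in Stat5 siRNA cells and 1.43 in control siRNA cells. The latter is past 2-fold, where 1.89% of all genes were higher. With Stat5 siRNA at 30 min Tigar stood at 0.63 and Bsg, a lactate transporter chaperone, at -0.55. With Stat5 siRNA at 2 h the farthest were Mpi at -0.61 and Pfkfb4 at -0.51. Of 15 other pentose phosphate genes 10 reached the floor, with 0 past 2-fold and the farthest values those of Prpsap1 at 2 h of IL-3 (-0.60) and H6pd with Stat5 siRNA at 2 h (-0.52).

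Hypoxia factor genes outside glycolysis were mostly low after 2 h of IL-3, with 14 of 18 below 0 and a median of -0.30, while the median over all genes was -0.03. Ddit4, a stress-induced inhibitor of mTOR signalling, was the 1 gene past 2-fold at 2 h, where 1.63% of all genes were lower. It read 508 without IL-3, 158 at 30 min and 125 at 2 h in control siRNA cells. Ddit4 was thus past 2-fold lower at 30 min already, where 0.343% of all genes were lower. In Stat5 siRNA cells Ddit4 read 262 at 30 min and 231 at 2 h. With Stat5 siRNA, 0 genes of this list passed 2-fold at either time, the medians were -0.16 at 30 min and 0.04 at 2 h, and the farthest values were those of Ddit4 (0.73) and the mitophagy gene Bnip3 (-0.71) at 30 min and of Ddit4 (0.89) and Mxi1 (-0.79), which encodes a Myc antagonist, at 2 h. Among 18 measured regulators of glucose metabolism genes, Myc was past 2-fold at 30 min of IL-3, where 0.711% of all genes were higher. At 2 h, where 2.45% of all genes were higher and 1.63% lower, Myc (at least 2.82-fold), Mycn (2.34-fold) and Pik3cd (at least 2.28-fold) were higher and Prkaa1, a catalytic subunit gene of the energy sensor AMPK, lower (a log2 ratio of -1.05). Myc, a transcription factor that activates glycolysis genes, read 39.4 without IL-3, 527 at 30 min and 338 at 2 h, a log2 ratio of at least 2.14 at 30 min. With Stat5 siRNA, 0 of these regulators passed 2-fold, and Myc read 452 in Stat5 siRNA cells and 527 in control siRNA cells at 30 min and 481 in Stat5 siRNA cells and 338 in control siRNA cells at 2 h.

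Promoters from the RefSeq table were available for 32 of the 33 genes, Slc2a3 being absent, and gave 46 promoters of 300 bases. The letters ACGTG, read on both strands, were found in 19 of 46 (41.3%), beside 19.6% of all 32851 promoters in the table. The E-box CACGTG, which always contains ACGTG, was found in 4 (8.7%), beside 7.15%, and the STAT site TTCNNNGAA in 2 (4.35%), beside 8.3%. With Stat5 siRNA at 30 min, 10 of 12 genes with a match lay below 0, with a median of -0.12, and 9 of 12 without, with a median of -0.25. At 2 h of IL-3 in control siRNA cells, the medians were -0.03 with a match and -0.07 without. With Stat5 siRNA at 2 h, 7 of 10 genes with a match lay below 0, with a median of -0.20, and 5 of 12 without, with a median of 0.02. A match says only that the letters are in the window.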

How the data were processed

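RNA of Ba/F3-beta cells in 5 conditions was hybridised to 15 Affymetrix arrays, 1 per condition and design. The deposited values are linear signal intensities that the authors normalised with MAS5, per the submitters' processing notes; their trimmed means, without 2% at each end, were 150.04 to 150.1. Arrays were scaled to a trimmed mean of 150 with Python 3.11.15, numpy 2.4.6 and pandas 2.3.3. The floor of 119.8 is the signal that 14553 non-control probe sets, the number named in the series' design text, reached on at least 1 array. Detection calls were not used here. Samples were grouped by title. Of the non-control probe sets, 29131 had 1 gene symbol in the platform annotation, 724 several and 6846 none; none was named from several. Kinds that can cross-hybridise (_f_at, _i_at, _r_at and _x_at) entered only where a gene had no other. The 6 comparisons were made as log2 ratios, with no test because each group had 1 array per design. Changes past 2-fold, and by a second rule 1.5-fold, were counted. The calculation was tested on simulated data. The number of arrays limits the precision. The members and lists were chosen with earlier results of these data known. All 33 members may be named; of each other list, members past 2-fold or otherwise the 2 farthest from 0 are named, with Stat5a and Stat5b as siRNA targets, and marker genes were named after their values were seen. Columns of values not used numbered 0. Alternatives changed the floor, the scaling, the choice of probe sets and the fold threshold.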

Additional observations from a re-analysis of the deposited data

Results flagged for a closer look

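Hk1 had opposite directions between 30 min and 2 h of IL-3 in the 2 siRNA groups. The log2 ratio of 2 h over 30 min was -0.74 in Stat5 siRNA cells and 0.23 in control siRNA cells, a difference of -0.98, or -2.37 SDs of such a difference as read from probe sets of 1 gene on all designs and -2.92 on U74A. The signals were 5254 at 30 min and 3139 at 2 h in Stat5 siRNA cells, and 4998 at 30 min and 5882 at 2 h in control siRNA cells. The 2 h array of Stat5 siRNA cells was thus the low one. Bright U74A probe sets were low as a class on that array against control siRNA cells, as given above, and Hk1 belongs to that class. For 2 h over 30 min, the Gapdh control probe sets on U74A gave -0.27 to -0.12 in Stat5 siRNA cells and 0.04 to 0.14 in control siRNA cells. With median scaling the Hk1 ratio in Stat5 siRNA cells was -0.55. The part of the class in the Hk1 values was not tested. The difference was not tested, since each condition had 1 array and Hk1 was read by 1 U74A probe set.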

How the results depend on the processing

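The 2-fold calls of members were those of Slc2a3 alone. Their sign held under the 11 alternatives, of which the change of fold threshold gives counts and no gene values. Member medians near 0 changed sign in some comparisons, running from -0.06 to 0.055 with Stat5 siRNA at 2 h. Of 1421 gene values under the alternatives, 1405 stayed within 1 SD between probe sets of 1 gene and 16 moved further. Counted at 1.5-fold, members numbered 2 higher and 2 lower at 2 h of IL-3 in control siRNA cells, 2 lower with Stat5 siRNA at 2 h, 2 higher and 2 lower from 30 min to 2 h in Stat5 siRNA cells, and 1 higher and 1 lower from 30 min to 2 h in control siRNA cells. All-gene shares are given above. From 30 min to 2 h in Stat5 siRNA cells, median scaling gave 3 higher (Hk2, Pfkp and Slc2a3) and 0 lower. By that scaling 8.02% of all genes were higher and 5.94% lower. Quantile scaling and the doubled floor each gave 1 higher there, where 6.54% and 5.7% of all genes were. Floor changes also moved the counts of lower members at 2 h of IL-3 and from 30 min to 2 h in control siRNA cells. With the floor halved the member median at 2 h of IL-3 was -0.11, and with the floor doubled 0 members were 2-fold higher at 2 h of IL-3 and 0 from 30 min to 2 h in Stat5 siRNA cells. Slc2a3, at 0.995 from 30 min to 2 h in control siRNA cells, was the 1 member 2-fold higher there with the floor halved, with signals not raised to it, with quantile scaling or with the brightest probe set not of a cross-hybridising kind. Median scaling gave member medians of -0.21 with Stat5 siRNA at 30 min, 0.055 with Stat5 siRNA at 2 h and 0.22 from 30 min to 2 h in Stat5 siRNA cells, by its construction of shifting each design. Under median scaling 2 members, Pfkl and Pgam1, were 1.5-fold lower with Stat5 siRNA at 30 min, a count added after seeing the data; the other alternatives gave 0. The cause of the other changes was not tested. Slc2a3 had 1.61 at 2 h of IL-3 and -0.20 with Stat5 siRNA at 2 h when read from that probe set. No paired analysis was possible because each condition had 1 array per design and the labels carry no replicate numbers, and for the same reason no replicate could be left out. Signals under the floor limit Slc2a1 and Pfkm.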
